A study of Mus musculus with 8 samples.

Results

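Wnt target genes and the genes that carry the pericentral identity of hepatocytes were followed in the livers of fasted mice that lacked pyruvate carboxylase (Pcx) in hepatocytes. The set was a list of 10 genes, Axin2, Lgr5, Tbx3, Rnf43, Znrf3, Rhbg, Lhpp, Nkd1, Ctnnb1 and Tcf7l2, named by symbol and matched to Ensembl identifiers, out of 35275 genes in the count table. For 9 of the 10 a row was found, and all 9 were among the 13168 genes that passed the filter on low counts. Rhbg, an ammonium transporter of pericentral hepatocytes, had no row under its identifier and was not analysed here.

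The study compared liver RNA of 4 Pcx L-/- mice with that of 4 floxed littermates, which the labels call WT, by RNA-seq with 1 library per mouse. All 8 were male C57BL/6 mice aged 9 weeks and fasted for 24 h from 3 pm to 3 pm. Both groups carried Pcx with a floxed exon 10, and Pcx L-/- mice also carried Albumin-Cre, which is active in hepatocytes, so other liver cells kept the gene. The libraries held 12016242 to 20023108 counted reads. Values below are normalized CPM (the read count scaled by library total and by edgeR's TMM factor), and a fold change is Pcx L-/- over WT. Pcx itself was at 1114 ± 191 normalized CPM in WT and 40.1 ± 5.29 in Pcx L-/- liver (SD, n = 4 each), 3.6% of the WT level, and no library went against its label. Whole liver was sequenced, so fewer cells of a type and less RNA per cell cannot be told apart.

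Wnt proteins bind Frizzled receptors and the coreceptors Lrp5 and Lrp6, which stops the destruction complex from degrading β-catenin. β-Catenin then joins TCF factors on DNA and switches on target genes, several of which feed back on the pathway. In the liver, endothelial cells of the central vein supply Wnt and R-spondin signals, and hepatocytes around that vein respond with a pericentral programme that includes glutamine synthetase and many cytochromes P450, while periportal hepatocytes carry out urea synthesis and gluconeogenesis.

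The set of RefSeq promoter windows used here, 250 bases before to 50 after a transcript start (GRCm38.p6), covered 5 of the 10 members with 8 windows in all. A member without a window is missing from that set only. Those of Axin2, the member with the highest fold change, and Tcf7l2, the DNA-binding partner of β-catenin, are shown because the TCF core letters CTTTG (reverse complement CAAAG) were absent from the Axin2 window and present in that of Tcf7l2, where capitals mark them. Both lie on the plus strand, at chr11:108920099-108920398 and chr19:55741560-55741859.
Axin2: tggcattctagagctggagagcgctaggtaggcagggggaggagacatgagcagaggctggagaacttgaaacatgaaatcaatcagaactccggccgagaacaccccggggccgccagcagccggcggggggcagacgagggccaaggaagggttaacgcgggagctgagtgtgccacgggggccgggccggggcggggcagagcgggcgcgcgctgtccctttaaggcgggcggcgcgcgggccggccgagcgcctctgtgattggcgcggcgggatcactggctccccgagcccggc
Tcf7l2: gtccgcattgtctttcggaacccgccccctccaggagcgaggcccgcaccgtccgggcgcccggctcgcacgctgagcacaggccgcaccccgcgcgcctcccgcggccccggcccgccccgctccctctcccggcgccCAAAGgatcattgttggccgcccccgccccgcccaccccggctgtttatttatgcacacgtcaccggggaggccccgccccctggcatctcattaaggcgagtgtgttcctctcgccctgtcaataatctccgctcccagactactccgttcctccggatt
The capitals began at base -111 from the Tcf7l2 start. On either strand, CTTTG was found in 2 of the 8 member windows, both of Tcf7l2, and in 53.93% of all 32851 promoter windows of the same length. The longer CTTTGAT (reverse complement ATCAAAG), which contains the shorter motif, was in 0 of the 8 and in 3.729% of all windows. A match is a run of letters, not a bound site.

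Axin2 and Tbx3 were higher in Pcx L-/- liver, and the other 7 members tested did not pass the test in either direction. With an adjusted p under 0.05 (edgeR's quasi-likelihood test, Benjamini-Hochberg over all genes tested), 2 of 9 members were higher, beside 14.1% of all genes tested, and 0 were lower, beside 13.5%. In both directions together, 27.6% of all genes passed. At an unadjusted threshold of 0.05, 2 members were higher and 1 lower, but the share of all genes past that threshold is not given. These unadjusted counts therefore cannot be read against the shares above. DESeq2 and limma each called 2 higher and 0 lower. Over all genes, DESeq2 called 1954 higher and 2023 lower of 14808, and limma on log2(FPKM + 1) 3822 higher and 823 lower of 13168. The median log2 fold change was -0.08 over the members and -0.01 over all genes tested. The WT and Pcx L-/- libraries did not overlap for 3 of the 9 members, Axin2, Tbx3 and Ctnnb1, beside 27.6% of all genes.

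**Figure D1:**
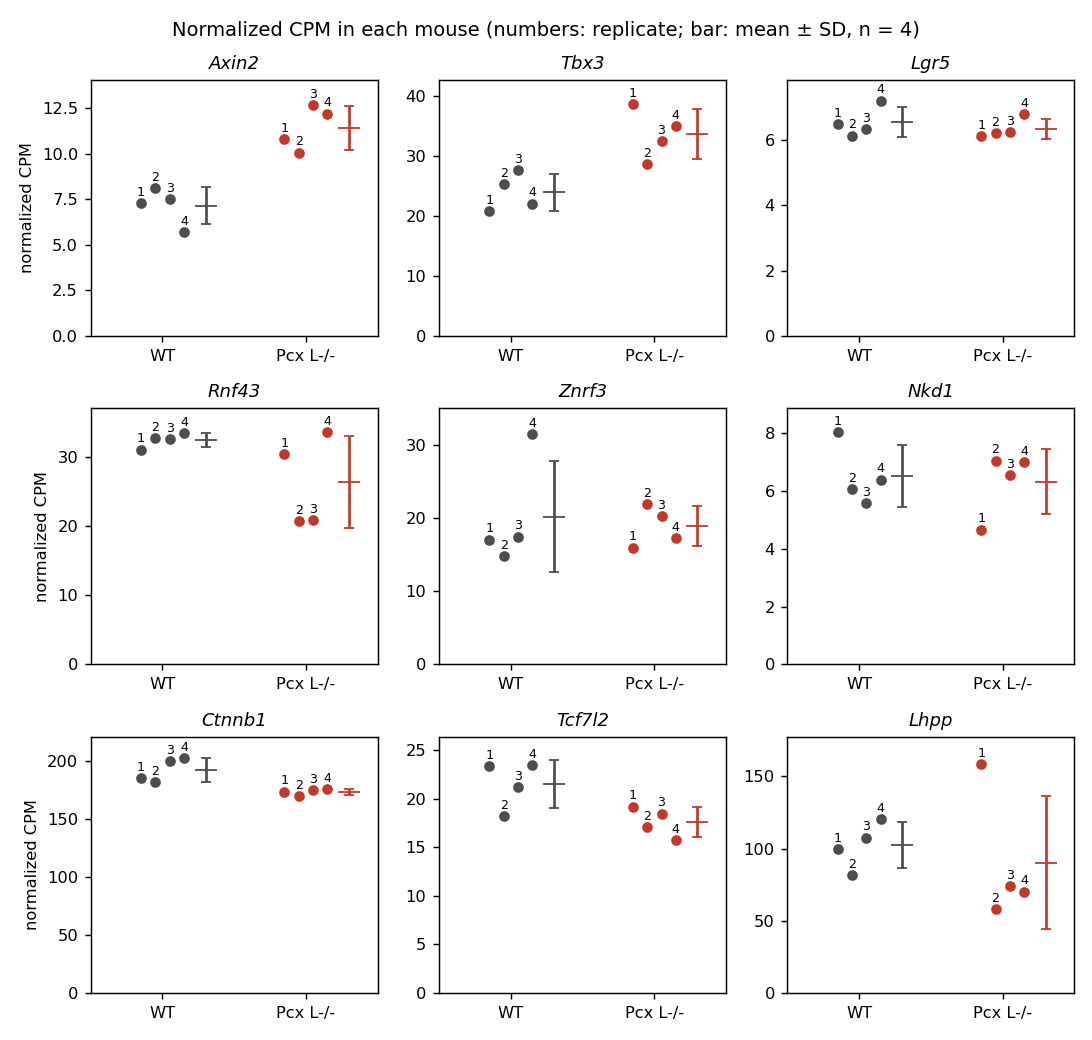
Normalized CPM (vertical axes, from 0) of each of the 9 members in every mouse, WT in grey and Pcx L-/- in red, with the replicate number over each point and the mean ± SD beside it (n = 4). Axin2 and Tbx3 lay higher in each Pcx L-/- mouse than in any WT mouse, Znrf3 had a WT library at 31.6 and Lhpp a Pcx L-/- library at 158.7.

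**Figure D2:**
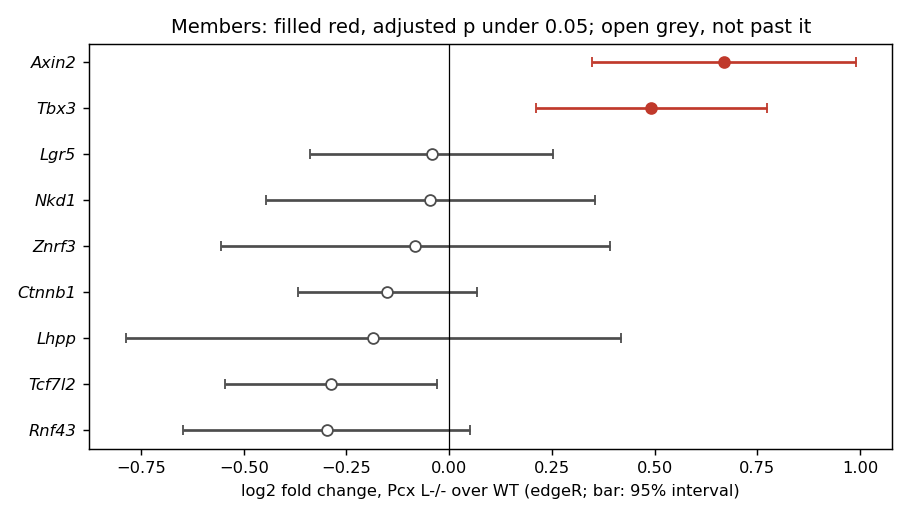
Log2 fold change of each member, Pcx L-/- over WT, from edgeR (horizontal axis) with its 95% interval. The points of Axin2 at 0.67 and Tbx3 at 0.49 are filled because they passed the test, and the other 7, between -0.30 and -0.04, are open.

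Axin2 is a scaffold of the destruction complex and a widely used reporter of β-catenin activity, since the pathway induces its own inhibitor (ENSMUSG00000000142, chr11:108920349-108950783). The WT libraries held 7.29, 8.10, 7.53 and 5.69 normalized CPM in replicates 1 to 4, and the Pcx L-/- libraries 10.8, 10.1, 12.7 and 12.2. Each Pcx L-/- mouse was above each WT mouse. The means were 7.15 ± 1.03 and 11.4 ± 1.21 (SD, n = 4), the latter 160.0% of the former, and the log2 fold change was 0.67 (SE 0.15, 95% interval 0.35 to 0.99, edgeR adjusted p = 0.00759). Axin2 passed the test in all 18 alternative fits, with log2 fold changes from 0.58 to 0.95. The numbers of the mice fell in the 500s and 800s, a series whose meaning is not stated, and the log2 difference was 0.74 within the 800s (3 Pcx L-/- against 2 WT) and 0.45 within the 500s (1 against 2, no test). An antisense gene, Gm11670, overlapped 3.80% of the Axin2 exon bases, and whether the counting used strand is not given. Overlaps here and below use GENCODE M21 gene models, which may differ from those behind the counts. Axin2 had 5506 exon bases in M21, against a length of 4260 bases behind the deposited FPKM.

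Tbx3, a T-box transcription factor and direct β-catenin target in liver, also rose (ENSMUSG00000018604, chr5:119670669-119684724). It was at 20.8, 25.3, 27.6 and 22.1 normalized CPM in WT replicates 1 to 4 and at 38.7, 28.7, 32.4 and 35.0 in Pcx L-/- replicates 1 to 4. The groups were separate, but Pcx L-/- replicate 2 lay close to WT replicate 3. The log2 fold change was 0.49 (SE 0.13, 95% interval 0.21 to 0.77, edgeR adjusted p = 0.0161), and within the 800s and 500s it differed by 0.36 and 0.73 on the log2 scale. The call was lost without WT replicate 1 (log2 fold change 0.43, adjusted p = 0.0538) and without Pcx L-/- replicate 4 (0.47, adjusted p = 0.0505). Tbx3os1, an antisense gene, overlapped 1.74% of its exon bases.

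Lgr5, a receptor for R-spondins and a pericentral Wnt target, was even across the 8 mice (ENSMUSG00000020140, chr10:115450311-115587780). WT libraries held 6.48, 6.12, 6.33 and 7.19 normalized CPM and Pcx L-/- libraries 6.11, 6.20, 6.22 and 6.77. The groups overlapped throughout, and the log2 fold change of -0.04 had a 95% interval from -0.34 to 0.25 (edgeR adjusted p = 0.844), with its sign turned when libraries were scaled by their totals alone, in the limma fits and without WT replicate 4, where it was 0.0015.

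Rnf43 and Znrf3 are membrane ubiquitin ligases that remove Frizzled receptors and are themselves induced by β-catenin. Rnf43 (ENSMUSG00000034177, chr11:87662722-87735539) was at 31.0, 32.7, 32.6 and 33.4 normalized CPM in WT and at 30.4, 20.7, 20.8 and 33.6 in Pcx L-/- liver. Pcx L-/- replicates 2 and 3 were low and the other 2 stood at the WT level, so the SD was 6.61 in Pcx L-/- and 0.99 in WT mice. The log2 fold change was -0.30 (95% interval -0.65 to 0.05, edgeR adjusted p = 0.191). Znrf3 (ENSMUSG00000041961, chr11:5276324-5444847) was at 17.1, 14.9, 17.5 and 31.6 in WT and at 16.0, 22.01, 20.4 and 17.3 in Pcx L-/- liver. WT replicate 4 stood far above the other WT mice, and without it the log2 fold change turned from -0.08 (95% interval -0.56 to 0.39, edgeR adjusted p = 0.812) to 0.20 (adjusted p = 0.294), as it also turned with scaling by library totals alone (0.23) and in the limma fits.

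Nkd1, which binds Dishevelled and dampens the signal as a feedback inhibitor, was at 8.04, 6.06, 5.57 and 6.39 normalized CPM in WT and at 4.66, 7.05, 6.54 and 7.01 in Pcx L-/- liver (ENSMUSG00000031661, chr8:88521354-88594884). WT replicate 1 was the highest library and Pcx L-/- replicate 1 the lowest. The log2 fold change was -0.05 (95% interval -0.45 to 0.35, edgeR adjusted p = 0.877), but 0.07 without either of these 2 mice, 0.25 with library totals alone and above 0 in the limma fits.

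Ctnnb1 encodes β-catenin, the effector of the pathway, and its protein rather than its mRNA is the regulated step (ENSMUSG00000006932, chr9:120929216-120960507). Its WT libraries held 186, 182, 201 and 203 normalized CPM and its Pcx L-/- libraries 174, 170.0, 175 and 176. All Pcx L-/- mice were below all WT mice, by a narrow margin between WT replicate 2 and Pcx L-/- replicate 4, and the log2 fold change of -0.15 (95% interval -0.37 to 0.07) did not pass the test (edgeR adjusted p = 0.293). With library totals alone it was 0.14, and it was above 0 in the limma fits. Exons of Ulk4 on the opposite strand and of Mir7090 covered 15.1% of the 5192 Ctnnb1 exon bases in M21. The length behind the deposited FPKM was 3623 bases.

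Tcf7l2, the TCF factor that carries β-catenin to DNA in hepatocytes, was at 23.4, 18.2, 21.2 and 23.5 normalized CPM in WT and at 19.2, 17.1, 18.5 and 15.8 in Pcx L-/- liver (ENSMUSG00000024985, chr19:55741820-55933654). WT replicate 2 lay among the Pcx L-/- mice. The log2 fold change was -0.29 (95% interval -0.55 to -0.03, edgeR adjusted p = 0.0915), and it passed the test only without WT replicate 2 (-0.36, adjusted p = 0.0434). With library totals alone it was -0.0046.

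Lhpp, a phosphatase that acts on phosphohistidine and is enriched around the central vein, varied most within the Pcx L-/- group (ENSMUSG00000030946, chr7:132610638-132706420). It was at 99.8, 81.9, 107.6 and 120.5 normalized CPM in WT and at 158.7, 57.9, 73.8 and 70.2 in Pcx L-/- liver. Pcx L-/- replicate 1 was the highest of all 8 mice and the other 3 were below every WT mouse. Over all mice the log2 fold change was -0.18 (95% interval -0.79 to 0.42, edgeR adjusted p = 0.661), and 0.064 with library totals alone. Without Pcx L-/- replicate 1 it was -0.61 and passed the test (adjusted p = 0.00743). Within the 800s the log2 difference was -0.76, and within the 500s, where that mouse is the sole Pcx L-/- animal, it was 0.80.

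Levels of different genes were compared on the deposited FPKM, which are divided by gene length and scaled by library total. In WT liver Lhpp was highest at 57.3 ± 6.62 FPKM and Ctnnb1 next at 48.2 ± 1.89, with overlapping ranges. Rnf43 followed at 6.82 ± 0.30, apart from both neighbours, then Tcf7l2 at 4.73 ± 0.46, Tbx3 at 4.37 ± 0.68 and Znrf3 at 2.87 ± 0.88, each overlapping the next of these 3. Axin2 at 1.53 ± 0.29, Nkd1 at 1.37 ± 0.25 and Lgr5 at 1.23 ± 0.03 closed the order (SD, n = 4), Axin2 overlapping Nkd1 and Nkd1 overlapping Lgr5. In Pcx L-/- liver Tbx3 followed Ctnnb1 at 7.44 ± 0.53 FPKM, overlapping Rnf43 at 6.72 ± 1.54, and Axin2 at 2.98 ± 0.45 overlapped Znrf3 at 3.34 ± 0.71 and no longer Nkd1 at 1.64 ± 0.40.

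The ratio of Axin2 to another member within a mouse does not depend on how libraries are scaled. Axin2 was set over the other 8 tested members after its values were seen, as the member with the highest fold change, and the ratios share it, so they are a description with no test. The log2 ratio of Axin2 to Rnf43 averaged -2.19 ± 0.24 in WT and -1.18 ± 0.37 in Pcx L-/- mice (SD, n = 4), a difference of 1.01. Differences were 0.97 for Tcf7l2, 0.83 for Ctnnb1, 0.73 for Nkd1 and 0.73 for Lgr5. For these 5 partners every Pcx L-/- mouse was above every WT mouse. Differences were 0.73 for Znrf3, 0.97 for Lhpp and 0.19 for Tbx3, each with overlapping groups.

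**Figure D3:**
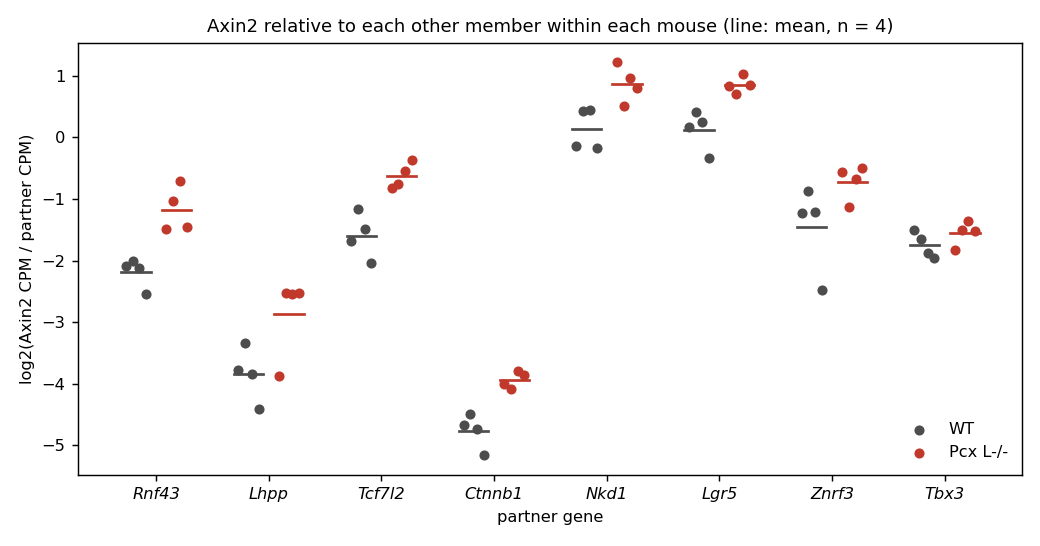
Log2 ratio of Axin2 to each other member (vertical axis) in every WT mouse (grey) and Pcx L-/- mouse (red), with lines at the means (n = 4). The red points lie above all grey points for Rnf43, Tcf7l2, Ctnnb1, Nkd1 and Lgr5 and overlap them for Lhpp, Znrf3 and Tbx3.

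The genes whose log2 values followed Axin2 most closely over the 8 libraries were Anxa4 (Pearson r = 0.996), an annexin, and the ribosomal protein genes Rps2 (0.984) and Rps24 (0.983), among 12239 genes compared. These r include the genotype difference, carry no test, and reads of ribosomal protein genes can be shared with processed copies.

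The remaining Wnt pathway and the liver zones were described by lists taken from general knowledge, written with earlier results of these data known. Shares of all genes below are those of edgeR, and the other fits had their own. DESeq2 called 1954 genes higher and 2023 lower of 14808. Limma on log2(FPKM + 1) called 3822 and 823 of 13168, and library totals alone 3913 and 870 of 13168. The share past the unadjusted threshold is not given, so the unadjusted counts below cannot be read against these shares. Among other general Wnt targets, 3 of 9 tested were higher, beside 14.1% of all genes, and 0 lower, beside 13.5%, with a median log2 fold change of 0.30 (unadjusted, 4 higher and 0 lower, DESeq2 3 and 0, limma 4 and 0). Myc, a growth regulator that many signals besides Wnt induce, was at 4.88, 3.51, 3.42 and 3.70 normalized CPM in WT and at 14.5, 34.5, 22.4 and 32.3 in Pcx L-/- liver, and Ccnd1, which encodes cyclin D1, was at 10.3, 8.23, 12.5 and 16.6 against 24.5, 39.1, 30.8 and 42.6. Neither gene overlapped between groups, with log2 fold changes of 2.73 (SE 0.27, edgeR adjusted p = 0.0002) for Myc and 1.54 (SE 0.22, adjusted p = 0.0012) for Ccnd1. Tnfrsf19, a receptor of the tumour necrosis factor family, rose by 0.76 on the log2 scale (adjusted p = 0.0429) with overlapping groups, and lost its call without WT replicate 1, 3 or 4 or Pcx L-/- replicate 2, 3 or 4 (adjusted p 0.0572 to 0.127).

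**Figure D4:**
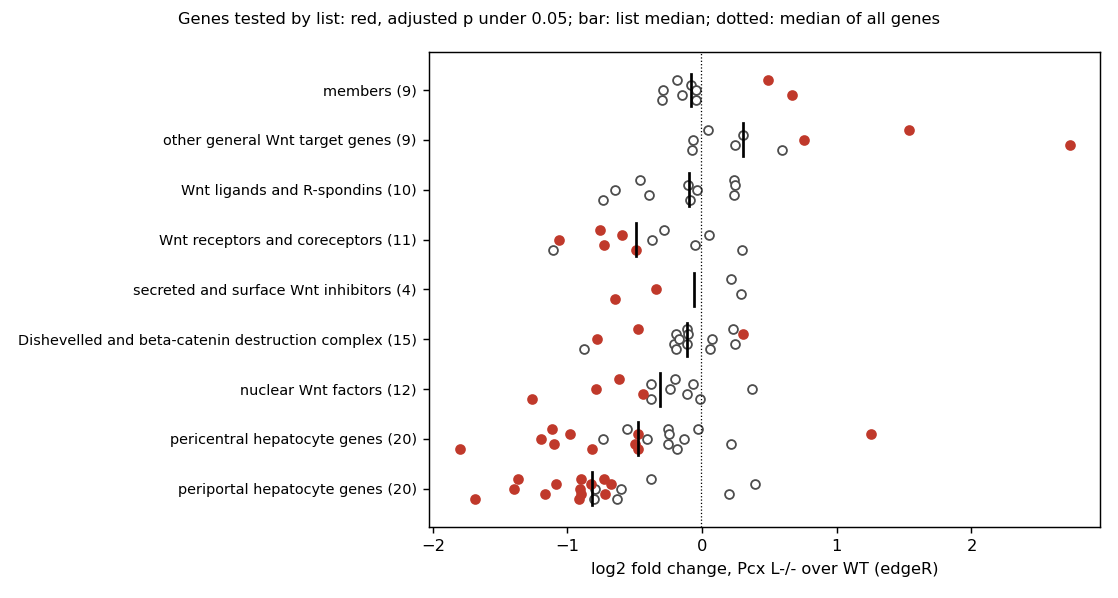
Log2 fold change (horizontal axis, edgeR) of every tested gene of the members, the pathway lists and the zone lists, 1 row per list with its number of genes. Red points passed the test, black bars are list medians (from -0.82 for periportal genes to 0.30 for other targets) and the dotted line is the median of all genes, -0.01.

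Wnt ligands and R-spondins gave no call, 0 higher and 0 lower of 10 tested by edgeR, beside 14.1% of all genes higher and 13.5% lower. Unadjusted, 0 were higher and 1 lower, by DESeq2 and limma 0 and 0, and the median log2 fold change was -0.10. Without Pcx L-/- replicate 1, 2 were lower, beside 2370 of all 13330 genes in that fit. Of the 25 listed, Wnt3, Wnt3a, Wnt8a and Rspo4 had no read in any library. The endothelial cell markers, which were not picked for the central vein, were 0 higher and 0 lower of 14 by edgeR, beside the same shares (unadjusted, 0 and 3, DESeq2 0 and 1, limma 0 and 0). Their summed level was 497 to 596 normalized CPM in Pcx L-/- and 580 to 809 in WT mice.

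Of the receptors and coreceptors, 5 of 11 were lower, beside 13.5% of all genes, and 0 higher, beside 14.1% (unadjusted, 0 higher and 7 lower, DESeq2 0 and 6, limma 1 and 2), with a median of -0.49. With library totals alone 3 were lower and 1 higher. Lgr4, an R-spondin receptor related to Lgr5, was at 63.8, 59.4, 69.0 and 102.2 normalized CPM in WT and at 40.9, 29.7, 35.8 and 34.0 in Pcx L-/- liver, without overlap. Its log2 fold change was -1.06 (SE 0.17, edgeR adjusted p = 0.0019), and it passed the test in all 18 alternatives, as did Fzd4 (-0.76, adjusted p = 0.0080). Fzd8 (-0.73, adjusted p = 0.0145) and Fzd1 (-0.59, adjusted p = 0.0044), both Frizzled receptors like Fzd4, kept the call when any single mouse was left out, but lost it in the limma fits and Fzd1 also with library totals alone. Lrp5 (-0.49, adjusted p = 0.0454) lost it in both of these and when any mouse but WT replicate 2 was left out (adjusted p 0.0576 to 0.114).

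Among secreted and surface inhibitors, 2 of 4 tested were lower and 0 higher (unadjusted and by DESeq2 0 higher and 2 lower, by limma and with library totals alone 0 in either direction), beside 13.5% of all genes lower. Notum, an enzyme that strips the lipid from Wnt proteins and is itself a pericentral Wnt target, was at 25.3, 24.2, 25.8 and 19.98 normalized CPM in WT and at 20.7, 14.1, 12.6 and 13.7 in Pcx L-/- liver. Only Pcx L-/- replicate 1 reached the WT range, and the log2 fold change was -0.65 (SE 0.16, edgeR adjusted p = 0.0134), a call lost with library totals alone and in the limma fits. Kremen1, a receptor for Dickkopf inhibitors, differed by -0.34 (adjusted p = 0.0344) and lost the call without WT replicate 1 or 2 or Pcx L-/- replicate 2, 3 or 4 (adjusted p 0.0579 to 0.113). It also lost it with library totals alone, in the limma fits, with no filter on low counts and with the series of mouse numbers as a covariate (adjusted p = 0.0519).

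In the Dishevelled and destruction complex list, 1 of 15 tested was higher and 2 were lower, beside 27.6% of all genes in both directions, with a median of -0.11. The balance turned to 2 higher and 0 lower by limma and with library totals alone (unadjusted, 1 higher and 3 lower, DESeq2 1 and 2). Over all genes, limma and library totals alone also called far more genes higher than lower. Csnk1a1, a kinase that primes β-catenin for degradation, was higher by 0.30 (edgeR adjusted p = 0.0467), Btrc, which takes β-catenin to the proteasome, lower by a log2 fold change of -0.48 (adjusted p = 0.0128), and the scaffold Amer1 at -0.78 (adjusted p = 0.0187). Csnk1a1 lost its call without any mouse but WT replicate 4 or Pcx L-/- replicate 1 (adjusted p 0.0762 to 0.136), with DESeq2 size factors, with no filter on low counts and with the series of mouse numbers as a covariate (adjusted p = 0.0629), and Amer1 without WT replicate 2 or Pcx L-/- replicate 2, 3 or 4 (0.0519 to 0.0605). Amer1 and Btrc also lost it with library totals alone and in the limma fits. Of the nuclear factors, 4 of 12 were lower, beside 13.5% of all genes, and 0 higher by edgeR (unadjusted, 0 higher and 6 lower, DESeq2 0 and 5, limma and library totals alone 0 and 1), with a median of -0.31. These were the corepressors Tle2 (-1.26, adjusted p = 0.0100) and Tle4 (-0.61, adjusted p = 0.0482), Ctnnbip1 (-0.79, adjusted p = 0.0137), which keeps β-catenin from TCF, and the coactivator Bcl9l (-0.44, adjusted p = 0.0329). Bcl9l lost its call without WT replicate 1, 3 or 4 or Pcx L-/- replicate 2, 3 or 4 (0.0607 to 0.110), and Tle4 without WT replicate 1, 2 or 3 or the same 3 Pcx L-/- mice (0.0580 to 0.144) and with the series of mouse numbers as a covariate (adjusted p = 0.0575). Ctnnbip1, Bcl9l and Tle4 also lost theirs with library totals alone and in the limma fits, and Tle2 in the limma fit of all genes above 0.

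Pericentral hepatocyte genes, listed apart from the members, were lower in 9 of 20, beside 13.5% of all genes, and higher in 1 of 20, beside 14.1%. Their median log2 fold change was -0.47 (unadjusted, 1 higher and 10 lower, DESeq2 1 and 9). In the 3 limma fits 4, 4 and 3 pericentral genes were lower and 1 was higher each time. Over all genes those fits called 823 and 822 of 13168 and 637 of 21737 lower. Periportal genes were lower in 13 of 20, beside the same 13.5%, and higher in 0 (unadjusted, 1 higher and 17 lower, DESeq2 1 and 16, limma 2 and 9, and 1 and 6 in limma with all genes above 0), with a median of -0.82. Among the hepatocyte markers, 3 of 8 (Apoa1, Trf and Fgb) were lower, beside the same 13.5%, and 0 higher (unadjusted, 0 and 6, DESeq2 0 and 5, limma 1 and 1). The summed level of the 8 markers was 61912 to 91660 normalized CPM in Pcx L-/- against 99844 to 123538 in WT mice, without overlap. Alb and Cps1 were in both the hepatocyte marker list and the periportal list, so these results are not separate observations. The part of these markers in the zone results was not tested.

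Glul, glutamine synthetase and the best known target of β-catenin at the central vein, was at 1068, 856.4, 1051 and 1440.5 normalized CPM in WT and at 997, 820.9, 748 and 761 in Pcx L-/- liver. The groups overlapped through WT replicate 2, and the log2 fold change was -0.41 (SE 0.18, edgeR adjusted p = 0.110), past the test only without Pcx L-/- replicate 1 (adjusted p = 0.0306). Cyp2e1, a pericentral cytochrome P450, was at 11108, 11907, 10142 and 8983 in WT and at 8774, 4061, 4077 and 4392 in Pcx L-/- mice. Replicate 1 was just under the lowest WT mouse and the other 3 far below, and the log2 fold change was -0.98 (SE 0.26, adjusted p = 0.0188), lost without Pcx L-/- replicate 2, 3 or 4 (adjusted p 0.0599 to 0.0718).

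Other pericentral genes that fell included Rgn, which encodes regucalcin (-1.80, edgeR adjusted p = 0.0035), Cyp3a11 (-1.19, adjusted p = 0.0124), the nuclear receptor Nr1i3 (-1.11, adjusted p = 0.0193), the dioxin receptor Ahr (-0.47, adjusted p = 0.0130) and the heme synthesis enzyme Cpox (-0.47, adjusted p = 0.0293). Cyp27a1 (-1.10, adjusted p = 0.0014), Cyp2a5 (-0.82, adjusted p = 0.0412) and Pon1 (-0.50, adjusted p = 0.0243) fell too. Of the 18 alternatives, Cyp27a1 kept its call in all, while Cyp2a5 lost it in 9 and Pon1 in 10. Nr1i3 and Cpox lost their calls without WT replicate 1 or 3 or Pcx L-/- replicate 2, 3 or 4 (adjusted p 0.0504 to 0.0936). All 3 of Nr1i3, Cpox and Ahr lost theirs in the limma fits, Cpox and Ahr also with library totals alone, and Cyp2e1 in the limma fit of all genes above 0. Gstm3, a glutathione transferase, rose instead, from 10.2, 8.55, 5.50 and 4.49 normalized CPM in WT to 20.8, 19.0, 19.2 and 10.3 in Pcx L-/- liver (log2 fold change 1.25, SE 0.27, adjusted p = 0.0072). Its groups did not overlap, although Pcx L-/- replicate 4 nearly met WT replicate 1.

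Of the periportal genes, Cyp2f2 was lower by a log2 fold change of -1.16 (edgeR adjusted p = 0.0063), Pigr, the immunoglobulin receptor, by -1.69 (adjusted p = 0.0014), Gldc of the glycine cleavage system by -1.40 (adjusted p = 0.0079) and Asl of the urea cycle by -1.37 (adjusted p = 0.0081). Ctsc, a lysosomal protease, was at -0.73 (adjusted p = 0.0024), Pck1 of gluconeogenesis at -0.72 (adjusted p = 0.0195) and the glutaminase Gls2 at -0.68 (adjusted p = 0.0454). Pck1 lost its call without WT replicate 3 or Pcx L-/- replicate 2, 3 or 4 (adjusted p 0.0505 to 0.0779), and Gls2 without any mouse but Pcx L-/- replicate 1 (0.0507 to 0.136). Both lost theirs in the limma fits, and Gls2 also with library totals alone.

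Pcx L-/- replicate 1 lay nearest to WT in both zones, being the highest of the 4 Pcx L-/- mice for 8 of the 9 lower pericentral and 12 of the 13 lower periportal genes. Its 20 pericentral genes summed to 18876 normalized CPM against 10236 to 10647 in the other 3 and 20459 to 23754 in WT. Cyp2e1 alone made up a large part of each of these sums. The TMM factor of this mouse was 0.97, against 1.14 to 1.16 in the other 3 and 0.83 to 0.94 in WT mice. It was the sole Pcx L-/- mouse of the 500s, so its place near WT cannot be told apart from the number series. Without this mouse, singled out after its values were seen, 11 pericentral and 17 periportal genes were lower, beside 2370 of all 13330 genes. Without Pcx L-/- replicate 2, 3 or 4 the pericentral count was 5, 4 and 4 and the periportal count 7 each time. Over all genes these 3 fits called 1043 of 13270, 1097 of 13254 and 953 of 13399 lower. Without WT replicate 3 the pericentral count was 5, beside 1239 of all 13482 genes. With library totals alone 5 pericentral and 11 periportal genes were lower, beside 870 of all 13168 genes.

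**Figure D5:**
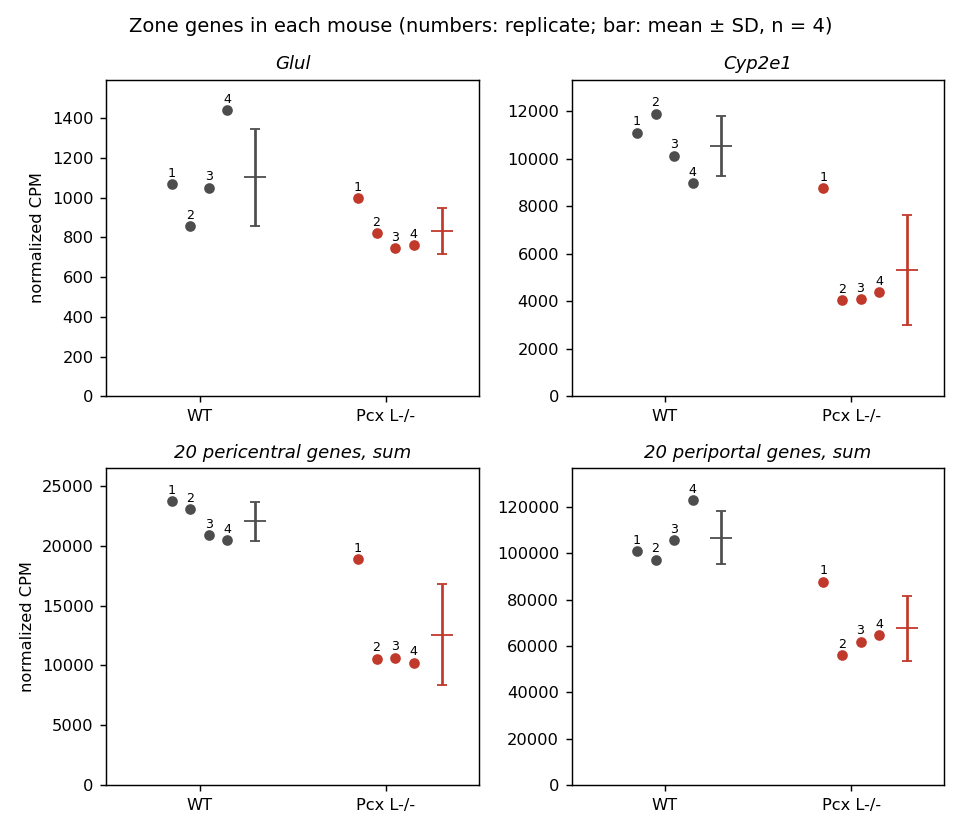
Normalized CPM (vertical axes, from 0) of Glul, Cyp2e1 and the summed 20 pericentral and 20 periportal genes in every WT (grey) and Pcx L-/- (red) mouse, with replicate numbers and mean ± SD (n = 4). Pcx L-/- replicate 1 is the highest red point in each panel, and Cyp2e1 makes up a large part of the pericentral sum.

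Markers of other cell types were counted beside 14.1% of all genes higher and 13.5% lower by edgeR, and the lists are short. Stellate cell markers gave 0 higher and 0 lower of 10 by edgeR (0 in either direction unadjusted, by DESeq2 and by limma), and Kupffer cell markers 1 higher of 10, Cd68 (log2 fold change 0.86, edgeR adjusted p = 0.0289), and 0 lower, with the same counts unadjusted, by DESeq2 and by limma. Cholangiocyte markers gave 1 lower of 6, Sox9 (-0.79, adjusted p = 0.0226), and 0 higher (unadjusted and by DESeq2 0 higher and 1 lower, by limma 0 and 0), and the summed level overlapped between groups for all 3 lists. Red blood cell markers gave 0 calls of 5 by edgeR (0 unadjusted, by DESeq2 and by limma) but had a median log2 fold change of 1.29, with sums of 367 to 4079 normalized CPM in Pcx L-/- and 279 to 984 in WT mice. Their part in the member results was not tested.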

How the data were processed

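Liver RNA of 4 Pcx L-/- and 4 WT mice was sequenced by a company, and the authors aligned reads to mm10 (GRCm38). The submitters' processing notes list STAR 2.5, HTSeq 0.6.1 and DESeq2 with no roles, and neither the annotation release nor the strand setting is given in the sources used here. The authors deposited raw read counts per Ensembl gene and FPKM values, and each of 142384 FPKM values above 0 equals the deposited count divided by a gene length and the library total (relative tolerance 1e-06), so FPKM carry no TMM factor. Gene symbols and coordinates came from GENCODE M21, which matched 34490 of 35275 identifiers (97.8%).

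Counts were tested with edgeR 4.0.16 (R 4.3.3), TMM factors, filterByExpr (minimum count 10, minimum total 15) and the quasi-likelihood F test in a model of genotype alone, with p-values adjusted by Benjamini-Hochberg over 13168 genes, with a threshold of 0.05. Each standard error was taken as the absolute log2 fold change over the root of its F statistic. Totals of 12016242 to 20023108 reads per library, a biological coefficient of variation of 0.181 and 6 residual degrees of freedom set the precision. The labels give separate mice, so p-values measure the spread between animals.

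Alternatives were DESeq2 size factors, library totals alone, no filter on low counts, and DESeq2 1.42.0 without shrinkage and with apeglm 1.24.0. The replicate number as a block and a covariate for mouse numbers in the 500s or 800s were also fitted. Limma 3.58.1 was run on log2(FPKM + 1) with and without the filter and on log2(FPKM + 0.1) with the filter. Each mouse was also left out in turn. Fold changes in limma are on the log2(FPKM + pseudocount) scale. The test steps were tested on simulated data.

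The members and lists were chosen with earlier results of these data known. Named genes are the members, Pcx, every listed pathway or zone gene past the threshold where 6 or fewer passed, otherwise the 3 highest and 3 lowest log2 fold changes among those past it, Glul, Cyp2e1 and Cyp2f2, and the 3 genes most like Axin2. The likeness rule could not be applied to Rhbg. Other genes named, such as listed genes with no reads, antisense partners and the partners in the ratio, were named after their values were seen.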

Additional observations from a re-analysis of the deposited data

Results flagged for a closer look

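With 4 mice per group, 18 sets of values (9 members in each genotype) were checked for a mouse far from the others, and 2 exceeded Dixon's 95% critical value, where chance flags about 1 in 20. Znrf3 in WT liver had a gap-to-range ratio of 0.841, with WT replicate 4 at 31.6 normalized CPM and the other 3 between 14.9 and 17.5. Lhpp in Pcx L-/- liver had a ratio of 0.842, with Pcx L-/- replicate 1 at 158.7 and the other 3 between 57.9 and 73.8. The same Pcx L-/- mouse was the highest of its group for 8 of the 9 lower pericentral genes.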

How the results depend on the processing

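Over the alternatives the count of members higher was 1 to 2 and the count lower 0 to 1 when each mouse was left out, and 2 and 0 in the other 10. All genes past the threshold numbered 3632, and 2109 to 4602 when each mouse was left out, while 40 pathway and zone genes became 22 to 51, and 26, 26 and 18 in limma with log2(FPKM + 1), log2(FPKM + 0.1) and all genes above 0. With library totals alone the all-gene median moved on the log2 scale from -0.01 to 0.28 and 81.8% of calls were higher against 51.1%. Signs turned, all to values below that shift, for Lgr5 (0.25), Znrf3 (0.23), Lhpp (0.064), Nkd1 (0.25) and Ctnnb1 (0.14). In limma on log2(FPKM + 1), with and without the filter, they turned for Lgr5 (0.14), Znrf3 (0.18), Nkd1 (0.15) and Ctnnb1 (0.13), and with a pseudocount of 0.1 for Lgr5 (0.22), Znrf3 (0.23), Nkd1 (0.22) and Ctnnb1 (0.13). FPKM are scaled by library totals too. Leaving out each mouse gave -0.075 to 0.0015 for Lgr5 and -0.21 to 0.20 for Znrf3, both turned without WT replicate 4, and -0.12 to 0.075 for Nkd1, turned without WT replicate 1 or Pcx L-/- replicate 1. Without single mice, nuclear factors lower fell from 4 to 2 (WT replicate 1 or 3, Pcx L-/- replicate 2, 3 or 4) and inhibitors lower from 2 to 1 (WT replicate 1 or 2, Pcx L-/- replicate 2, 3 or 4). Over all genes, the fits without these mice called 953 to 1571 lower, against 1777 in the main fit. The replicate numbers did not pair the mice (correlations of deviations 0.13, -0.15, -0.13 and -0.09). The replicate block called 2975 genes and left 2 members higher and 0 lower. Among the named list genes, Lrp5, Kremen1, Csnk1a1, Tle4 and Pon1 lost their calls in that fit. At these depths Lgr5 and Nkd1, near 6 normalized CPM, could not be resolved below the intervals given.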
